A study of Homo sapiens with 6 samples.

Results

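The 7 mitochondrially encoded subunits of respiratory complex I were MT-ND1, MT-ND2, MT-ND3, MT-ND4, MT-ND4L, MT-ND5 and MT-ND6, and all 7 were found by symbol among the 21961 rows of the gene tables. They were chosen by their values in the comparison of Nvs with mod, on counts and FPKM, with the light-strand gene MT-ND6 included. RNA was sequenced from HaCaT cells, a spontaneously immortalised line of human keratinocytes, in 3 Nvs and 3 mod libraries. The design text of the series sets UVB-irradiated HaCaT cells treated with beet (Beta vulgaris) vesicles, abbreviated BVNV, against UVB-irradiated cells without them. The labels of the mod libraries read UV-induced, but those of the Nvs libraries read control and name neither UVB nor vesicles, so the groups are called by their titles here. No UVB dose, vesicle dose or time was given in the sources used here, and all libraries came from 1 cell line. The labels speak of separate biosamples without saying that they were separate cultures, so the p-values cover only how these libraries vary, possibly for technical reasons.

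Complex I takes electrons from NADH, passes them to ubiquinone and pumps protons across the inner mitochondrial membrane. Its membrane arm is built around the ND proteins, whereas the rest of the enzyme is encoded in the nucleus and imported. Both strands of the circular mitochondrial genome are transcribed into long precursors, which are cut into single RNAs, mostly at the transfer RNAs that lie between the genes. All ND genes but MT-ND6 are read from the precursor that also carries the ribosomal RNAs, called the heavy-strand transcript here, and MT-ND6 from the opposite, light-strand one.

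The libraries held 41120058 to 44080808 counts in Nvs and 45637046 to 51369628 in mod. The mitochondrial genome took 52.6% ± 0.751 of them in Nvs and 30.5% ± 0.817 in mod (SD, n = 3 each). Nuclear genes therefore had less of each Nvs library. When scaled by library total, the typical gene lay at a log2 fold change of -0.77. The part of the mitochondrial share in that value was not tested. Unless stated otherwise, fold changes are Nvs minus mod on the log2 scale with their standard error (SE), scaled by TMM, which sets the typical gene near 0, so a rise is a rise relative to that gene. FPKM, the authors' count per length of gene and size of library, is scaled by library total, so each gene's log2 difference lies lower on that scale. Keratinocyte markers summed to 31840 to 34440 CPM in Nvs and 23850 to 26140 in mod, with all 12 markers detected. Of these 6 rose, 3 fell and 3 were not called, where 43.3% of all tested genes were called, and their median log2 fold change was 0.17, or -0.59 by library total. Markers of melanocytes (5 of 7 in the table) stayed at or below 6.08 CPM in sum in every library, those of leukocytes and endothelium (7 of 8) at or below 4.01 and those of fibroblasts (4 of 7) at or below 0.632. COL1A2, PDGFRB, THY1, TYR, DCT and PTPRC were not in the table. In bulk RNA, fewer cells of a type and less RNA per cell cannot be told apart, and the part of the difference in total mitochondrial RNA in any single gene's value was not tested.

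Some of the sequences bear on how the counts can be read, and they are given 5′ to 3′ as the mRNA reads, from GENCODE release 29 on GRCh38, the hg38 build named in the submitters' processing notes. The openings of MT-ND1 (chrM:3307-3336, plus strand) and MT-ND6 (chrM:14644-14673, minus strand) show the contrast between the strands, with the start codon in capitals.
MT-ND1: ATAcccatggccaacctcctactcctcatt
MT-ND6: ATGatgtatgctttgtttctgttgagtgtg
Over the whole coding sequence G made up 35.6% and C 7.05% of MT-ND6, while in the 6 heavy-strand ND mRNAs G made up 9.50% to 12.1% and C 29.5% to 36.0%. The ends differ too, and matter for poly(A)-selected libraries such as these, because in several mitochondrial mRNAs the tail itself completes the stop codon. The encoded bases of the stop codon are in capitals in the last bases of MT-ND1 (chrM:4233-4262), MT-ND4 (chrM:12108-12137), MT-ND5 (chrM:14119-14148) and MT-ND6 (chrM:14149-14178, minus strand).
MT-ND1: tacaatctccagcattccccctcaaaccTA
MT-ND4: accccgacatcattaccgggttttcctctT
MT-ND5: ctcatcctaaccctactcctaatcacaTAA
MT-ND6: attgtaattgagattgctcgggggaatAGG
MT-ND1 thus encodes 2 of the bases of its stop codon and MT-ND4 only 1, as do MT-ND2 and MT-ND3, whereas MT-ND4L, MT-ND5 and MT-ND6 end on a full triplet. MT-ND6 mRNA has been described as lacking a long poly(A) tail. MT-ND5 and MT-ND6 abut tail to tail on opposite strands, as the coordinates show.

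MT-ND4L and MT-ND4 lie on a single bicistronic mRNA whose reading frames overlap by 7 bases. The junction is shown at chrM:10740-10786, with the shared bases in capitals.
MT-ND4L and MT-ND4: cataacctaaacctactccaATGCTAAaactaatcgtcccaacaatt
Reads across this junction belong to both genes, and how the authors assigned them is not given in the sources used here. The strand setting of the counting is likewise not given, so reads from MT-ND6 and from the heavy-strand precursor that runs across it cannot be told apart. The coordinates and identifiers of the 7 in that annotation were MT-ND1 (ENSG00000198888.2, 3307 to 4262), MT-ND2 (ENSG00000198763.3, 4470 to 5511), MT-ND3 (ENSG00000198840.2, 10059 to 10404), MT-ND4L (ENSG00000212907.2, 10470 to 10766), MT-ND4 (ENSG00000198886.2, 10760 to 12137), MT-ND5 (ENSG00000198786.2, 12337 to 14148) and MT-ND6 (ENSG00000198695.2, 14149 to 14673, minus strand). Each is a protein-coding gene without introns.

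All 7 ND mRNAs stood higher in Nvs than in mod in every library, on the FPKM scale as well as after TMM scaling. The log2 fold changes had a median of 1.39, which is 2.62-fold, and ran from 1.19 for MT-ND4L to 1.66 for MT-ND1, beside a median of -0.01 for all 14617 tested genes. Scaled by library total the median of the 7 was 0.63. Every one of the 7 was called higher by the edgeR quasi-likelihood test, where 43.3% of all tested genes were called and 22.8% were called higher. The 7 were proposed with this contrast in view, so the values are a description and no p-value is given for them. Complete separation of the groups with Nvs on top, which all 7 showed, occurred in 27.0% of the tested genes. Together the ND mRNAs held 9.99%, 10.3% and 9.74% of all counts in the Nvs libraries, against 6.42%, 6.13% and 6.56% in the mod libraries. With 41884 to 1673334 counts per gene and library, the 95% Wilson interval of a gene's share of all counts was at most 0.957% of the value to either side, so counting error was small beside the spread between libraries. Such intervals cover counting error alone.

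**Figure D1:**
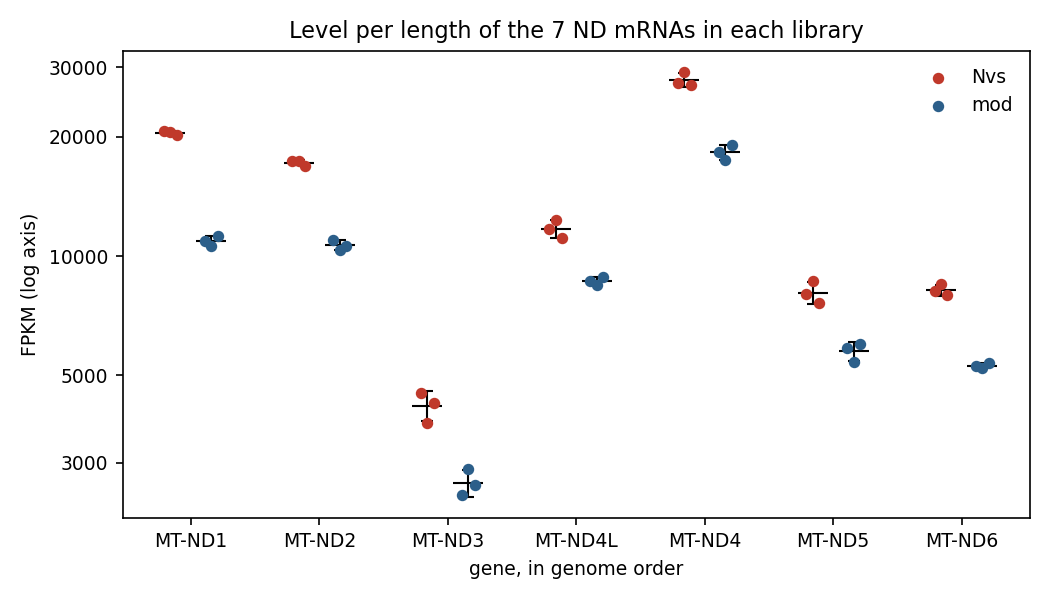
FPKM (log axis) of each ND mRNA in the 3 Nvs libraries and the 3 mod libraries, with bars for the mean and SD, genes in genome order. The Nvs points lie above the mod points for all 7 genes, and MT-ND4 is the highest and MT-ND3 the lowest in both groups.

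MT-ND1 lines the ubiquinone-binding channel where the arms of complex I meet, and it showed the largest difference of the 7. It had 20698, 20538 and 20212 FPKM in the Nvs libraries, against 10919, 10614 and 11234 FPKM in the mod libraries. The groups were far apart and their libraries differed little among themselves. After TMM scaling this came to 25565 ± 114 CPM in Nvs and 8065 ± 338 CPM in mod (SD, n = 3 each), a log2 fold change of 1.66 ± 0.05 SE, or 0.91 by library total.

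MT-ND2, MT-ND4 and MT-ND5 are the antiporter-like subunits, which resemble bacterial sodium-proton antiporters and form the proton pumps of the membrane arm. MT-ND2 had 17341, 17403 and 16920 FPKM in Nvs, against 10996, 10352 and 10622 FPKM in mod, with a log2 fold change of 1.45 ± 0.05 SE. MT-ND4 had 27446, 29190 and 27102 FPKM in Nvs, against 18285, 17449 and 19072 FPKM in mod, with 1.37 ± 0.06. MT-ND5, at the far tip of the arm, had 8012, 8641 and 7601 FPKM in Nvs, against 5858, 5393 and 5984 FPKM in mod, with 1.25 ± 0.07. No Nvs library overlapped a mod library for any of these genes. By library total the log2 fold changes were 0.69 for MT-ND2, 0.61 for MT-ND4 and 0.49 for MT-ND5. Nvs replicate 2 was the highest Nvs library and mod replicate 2 the lowest mod library for all 3.

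MT-ND3, MT-ND4L and MT-ND6 are small subunits between the quinone site and the pumps. MT-ND3 had 4501, 3790 and 4262 FPKM in Nvs, against 2486, 2902 and 2640 FPKM in mod, and a log2 fold change of 1.40 ± 0.07 SE. It varied most within groups and was lowest in Nvs replicate 2. MT-ND4L had 11696, 12307 and 11138 FPKM in Nvs, against 8663, 8466 and 8832 FPKM in mod, and the smallest log2 fold change of the 7 at 1.19 ± 0.05. MT-ND6 had 8163, 8475 and 7955 FPKM in Nvs, against 5269, 5215 and 5359 FPKM in mod. Its log2 fold change of 1.39 ± 0.05 was the median of the 7, beside a mean of 1.39 for the 6 heavy-strand members. By library total MT-ND3, MT-ND4L and MT-ND6 stood at 0.64, 0.44 and 0.63. The light-strand gene therefore lay in the middle of the heavy-strand genes.

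Per length, the order of the levels was nearly the same in both groups. In Nvs it ran from MT-ND4 (27912 ± 1119 FPKM) through MT-ND1, MT-ND2, MT-ND4L, MT-ND6 (8198 ± 262) and MT-ND5 (8085 ± 524) to MT-ND3 (4184 ± 362, SD, n = 3). The libraries of MT-ND6 and MT-ND5 overlapped in Nvs, and every other pair of neighbours was separate. In mod it ran from MT-ND4 (18269 ± 811 FPKM) through MT-ND1 (10922 ± 310), MT-ND2 (10657 ± 323), MT-ND4L, MT-ND5 (5745 ± 311) and MT-ND6 (5281 ± 72.8) to MT-ND3 (2676 ± 210, SD, n = 3). There MT-ND1 and MT-ND2 overlapped, and the other neighbours did not. MT-ND4 exceeded MT-ND3 by 6.10-fold to 7.70-fold within each Nvs library, against 6.01-fold to 7.36-fold within each mod library.

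The make-up of the ND mRNA pool needs no scaling between libraries, and it differed between the groups in a few members. MT-ND1 made up 19.9%, 19.1% and 19.9% of the counts of the 7 in the Nvs libraries, against 16.3%, 16.6% and 16.5% in the mod libraries. MT-ND4L made up 3.48% ± 0.0691 in Nvs and 4.06% ± 0.0574 in mod, and MT-ND5 14.7% ± 0.502 in Nvs and 16.4% ± 0.341 in mod (SD, n = 3 each). These members had shares that did not overlap between the groups, with MT-ND1 higher in Nvs and MT-ND4L and MT-ND5 lower. MT-ND4 was lower as well, by less, at 38.5% ± 0.511 in Nvs and 39.7% ± 0.483 in mod, also without overlap. Shares within the 7 have a fixed sum, so the higher share of MT-ND1 by itself lowers those of the other members. The log2 fold change of MT-ND4, at 1.37, lay close to the median of the 7 at 1.39. MT-ND2 had 18.0% ± 0.329 in Nvs and 17.5% ± 0.506 in mod, and MT-ND3 1.45% ± 0.158 in Nvs and 1.46% ± 0.160 in mod, with groups that overlapped. The share of MT-ND6 was 4.31% ± 0.00708 in Nvs and 4.38% ± 0.0978 in mod, and its groups overlapped as well. The difference for the light-strand member was smaller than the spread between the mod libraries.

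**Figure D2:**
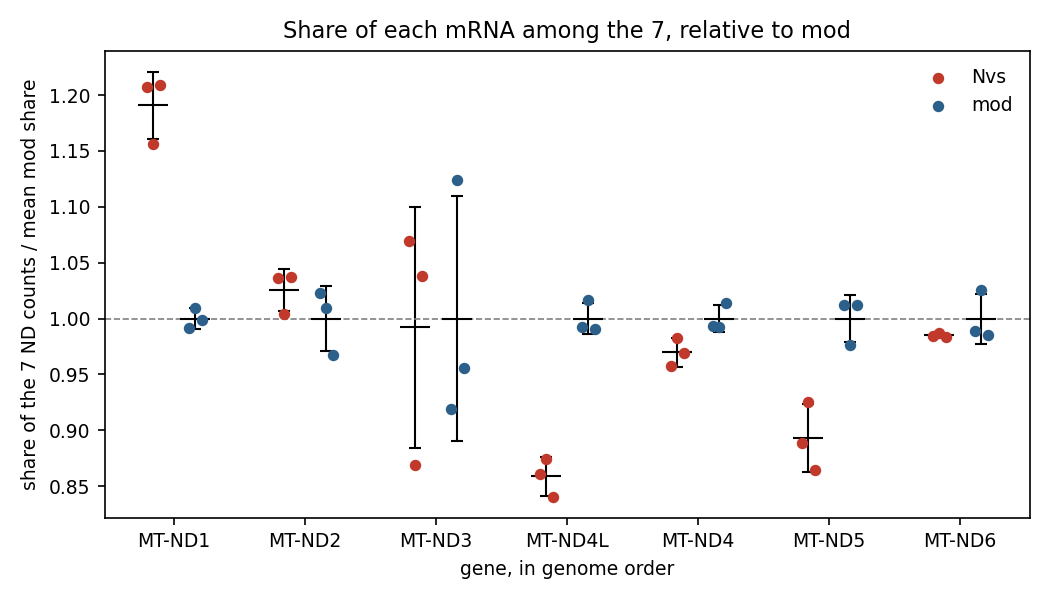
Share of each ND mRNA in the counts of all 7, divided by its mean share in mod, in each Nvs and mod library, with bars for the mean and SD. MT-ND1 sits at 1.19 in Nvs on average, MT-ND5 at 0.893 and MT-ND4L at 0.859, while MT-ND3 scatters around 1 in both groups.

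Ratios within a library, taken per length as FPKM over FPKM, showed the same differences. MT-ND4L over MT-ND4, the partners on the bicistronic mRNA, was 0.426, 0.422 and 0.411 in the Nvs libraries, against 0.474, 0.485 and 0.463 in the mod libraries. The groups did not overlap. MT-ATP8 over MT-ATP6, subunits of ATP synthase whose frames also overlap on a shared mRNA, was 0.176, 0.166 and 0.161 in Nvs, against 0.200, 0.190 and 0.179 in mod. In both mRNAs the upstream, shorter frame had the lower ratio in Nvs, by 0.885 times for MT-ND4L and 0.887 times for MT-ATP8. MT-ND1 over MT-ND2 was 1.19 ± 0.00806 in Nvs and 1.03 ± 0.0322 in mod, and MT-ND6 over MT-ND5 was 1.02 ± 0.0330 in Nvs and 0.921 ± 0.0401 in mod (SD, n = 3 each). Against the mean of the 6 heavy-strand members, MT-ND6 stood at 0.549 ± 0.00405 in Nvs and 0.557 ± 0.00895 in mod, with groups that overlapped. MT-ND3 over MT-ND4 was 0.150 ± 0.0181 in Nvs and 0.147 ± 0.0169 in mod, and its groups overlapped as well. A ratio within a library shows an unequal difference in counts per length and does not show which of the genes differed. For frames that overlap on a shared mRNA, such a difference need not be one of mRNA level, because both lie on the same molecule. How reads in the overlap were assigned is not given in the sources used here, and its part in these ratios was not tested.

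**Figure D3:**
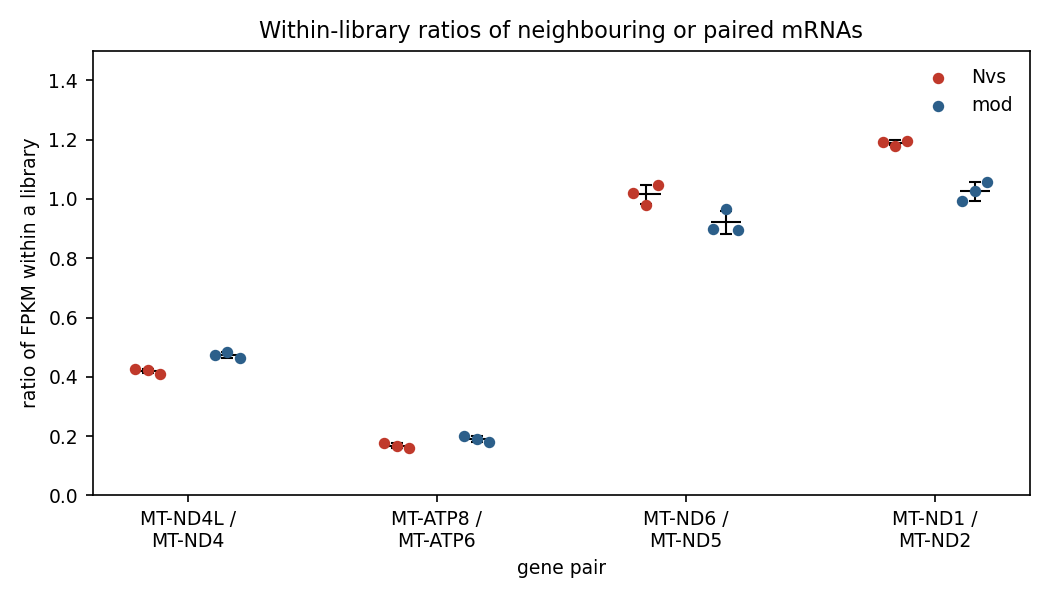
Ratio of FPKM values within each library for MT-ND4L over MT-ND4, MT-ATP8 over MT-ATP6, MT-ND6 over MT-ND5 and MT-ND1 over MT-ND2, in the 3 Nvs and 3 mod libraries, with mean and SD. The first pair of ratios is lower in Nvs and the other pair higher, without overlap in any of them.

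Set beside the other RNAs of the mitochondrial genome, the ND mRNAs held shares of the mRNA pool that overlapped between the groups. They made up 33.2%, 33.3% and 32.4% of the counts of the 13 mitochondrial mRNAs in Nvs, against 33.3%, 32.9% and 33.2% in mod. The other 6 mRNAs, which encode cytochrome b and subunits of cytochrome oxidase and ATP synthase, had a median log2 fold change of 1.41, from 1.27 for MT-ATP8 to 1.46 for MT-CO1. MT-ND1 had the largest value of the 13 mRNAs and MT-ND4L the smallest, so the ends of the range were held by ND genes. MT-ND5, at 1.25 ± 0.07 SE, and MT-ATP8, at 1.27 ± 0.06, came next and differed by less than either SE. The ribosomal RNAs had larger values than all 13 mRNAs, MT-RNR2 (16S) with 1.68 ± 0.06 SE and MT-RNR1 (12S) with 2.35 ± 0.10. These libraries were poly(A)-selected, and the part of that selection in the ribosomal RNA values was not tested. Values fell along the genome from MT-RNR1 through MT-RNR2 and MT-ND1 to MT-ND2. The step from MT-RNR2 to MT-ND1, at 1.66 ± 0.05, was smaller than either SE, and MT-CO1, the next mRNA, did not continue the fall. MT-RNR2 over MT-ND1, adjacent genes parted by a transfer RNA, was 6.19 ± 0.0414 in Nvs and 6.12 ± 0.148 in mod and overlapped. MT-RNR1 over MT-ND1 was 1.19 ± 0.00671 in Nvs and 0.736 ± 0.105 in mod, with mod replicate 3 at 0.855 above the other mod libraries. As a share of all mitochondrial counts, ribosomal RNA included, the ND mRNAs had 19.0% ± 0.311 in Nvs and 20.9% ± 0.337 in mod.

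**Figure D4:**
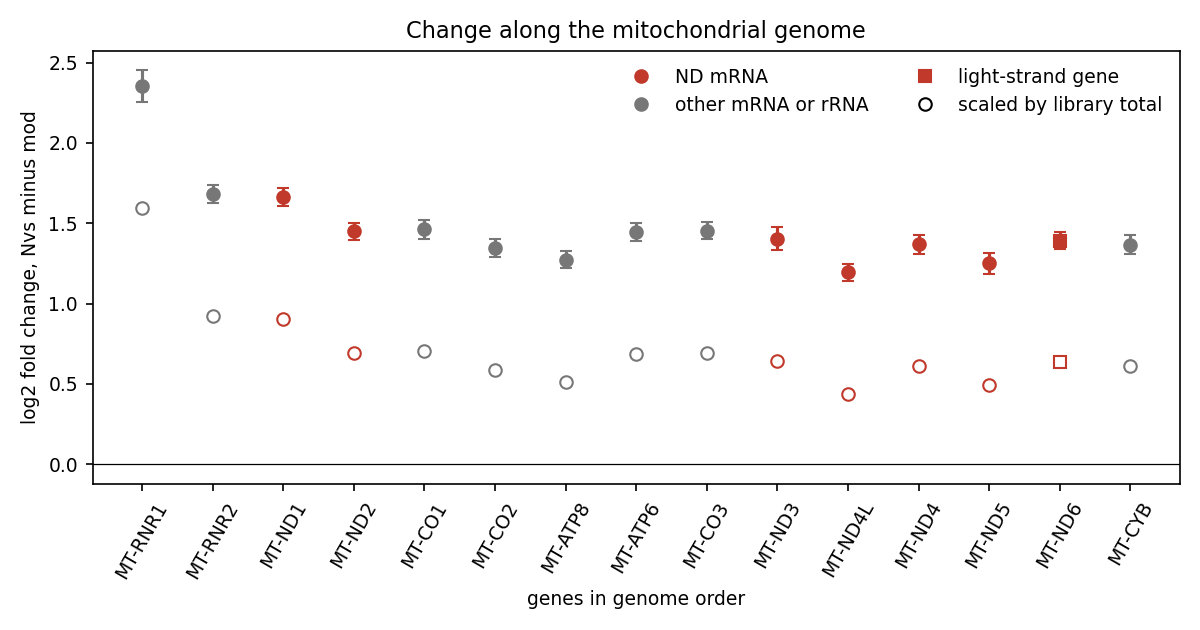
Log2 fold change (Nvs minus mod) of the 13 mRNAs and both ribosomal RNAs in genome order. Filled marks are TMM-scaled with the SE as error bars, open marks are scaled by library total, red marks are ND genes and the square is the light-strand gene MT-ND6. All values are above 0 with either scaling, MT-ND1 being the highest mRNA and MT-ND4L the lowest.

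Nuclear copies of mitochondrial DNA can take up reads of the ND genes. The table held counts for MTND2P28, a pseudogene of MT-ND2 at chr1:629640-630683, which matched MT-ND2 at 98.4% of 1042 aligned bases. A window that holds 3 of the 17 mismatches, at chrM:4886-4945 and chr1:630056-630115, is shown with the differing bases in capitals.
MT-ND2: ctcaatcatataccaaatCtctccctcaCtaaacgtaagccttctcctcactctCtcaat
MTND2P28: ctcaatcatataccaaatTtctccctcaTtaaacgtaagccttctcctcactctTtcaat
MTND2P28 had 48519, 44390 and 42845 counts in Nvs, against 36597, 31313 and 32550 counts in mod. That was 5.53% to 6.07% of the MT-ND2 count in Nvs, against 5.84% to 6.42% in mod, and the groups overlapped. The counts of MT-ND2 and MTND2P28 are therefore uncertain by reads that could match either. MTND4P12 stayed at or below 0.0656% of MT-ND4, MTND5P11 at or below 0.00859% of MT-ND5 and MTND1P23 at or below 0.00741% of MT-ND1. With the pseudogene counts added to their ND gene, an alternative chosen after seeing the data, the median log2 fold change of the 7 remained 1.39.

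By the distance between profiles over the 6 libraries, the nuclear-located genes most like the mean of the 7 were MTATP6P1, PPP1R15A, MTND2P28, MPHOSPH8 and CHD7. The root mean square distance of their centred log2 CPM from the mean ND profile was 0.041 to 0.061, among 2684 genes with at least 50 CPM. For comparison, that distance was 0.014 for MT-ND6 and 0.14 for MT-ND1. MTATP6P1 and MTND2P28 are pseudogenes of mitochondrial genes, and how reads that match both were counted is not known here. PPP1R15A, which encodes a regulatory subunit of the phosphatase that reverses eIF2α phosphorylation, had 213 ± 1.74 CPM in Nvs and 77.0 ± 3.71 CPM in mod. It was picked for its likeness to the ND profile in these libraries, so that difference is a description and no p-value is given.

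The nuclear-encoded partners of the ND proteins were mostly higher too, relative to the typical gene, but with smaller values. Of 37 listed core and accessory subunits, 33 were tested, and 23 rose, 1 fell and 9 were not called, against 22.8% called higher and 20.5% called lower among all genes. Their median log2 fold change was 0.47, and -0.29 by library total, where the typical gene stood at -0.77. NDUFA6 and NDUFB10 were not in the table, and NDUFS3 and NDUFA3 had at most 8 counts in any library and were not tested. Some of the tested genes without a call also had few counts, down to 7 in an Nvs library. A missing call there does not show an equal level. By library total 2 of the 33 were called higher and 15 lower, where 591 of all 14617 tested genes were called higher and 9937 lower. The direction of these genes thus depends on the scaling, whereas that of the ND mRNAs did not. Their median lay above the typical gene by either scaling.

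Among the core subunits, which carry the flavin and iron-sulfur clusters, 5 of 6 tested rose and none fell. NDUFS8, an iron-sulfur protein next to the quinone site, had 132 ± 11.7 CPM in Nvs and 83.3 ± 4.50 CPM in mod (log2 fold change 0.66 ± 0.07 SE, adjusted p = 4.44e-06, -0.10 by library total). NDUFS7, its neighbour in the cluster chain, rose by 0.75 ± 0.14, which was -0.01 by library total. NDUFV1, which binds NADH and flavin, rose by 0.18 ± 0.07 (adjusted p = 0.0435), which was -0.58 by library total. NDUFV1 lost its call without Nvs replicate 1 or 3 or mod replicate 2 or 3, with adjusted p up to 0.215, with upper quartile factors (0.214), with scaling from genes outside the mitochondrial genome (0.0539) and with a replicate block (0.067). NDUFS1, the largest iron-sulfur subunit, had the greatest value at 1.72 ± 0.60 (adjusted p = 0.0339), but its counts were uneven. They were 189, 307 and 219 in the Nvs libraries, against 54, 37 and 309 in the mod libraries, so the groups overlapped. Without mod replicate 3 its log2 fold change was 3.38, and without mod replicate 2 it was 1.25 with an adjusted p of 0.0962. It also lost its call without mod replicate 1 (adjusted p = 0.125) or without Nvs replicate 1, 2 or 3 (0.0523, 0.0927 and 0.0556), and DESeq2 gave an adjusted p of 0.161.

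Of 27 tested accessory subunits, which surround the core, 18 rose and 1 fell. The largest rises were those of NDUFA1 (51.7 ± 7.57 CPM in Nvs and 23.6 ± 3.28 CPM in mod, log2 fold change 1.13 ± 0.12 SE, adjusted p = 4.32e-06), NDUFA2 (1.07 ± 0.12) and NDUFS5 (0.91 ± 0.09). By library total NDUFA1 and NDUFA2 were still called higher, at 0.37 and 0.31, while NDUFS5 was not called, at 0.15 (adjusted p = 0.174). The smallest called rises were those of NDUFV3 (0.40 ± 0.10) and NDUFA5 (0.22 ± 0.08), which were -0.36 and -0.54 by library total. NDUFA5 lost its call without mod replicate 1 or 3 or Nvs replicate 1 or 3, with adjusted p up to 0.191, and with upper quartile factors (0.12). NDUFA9, at the joint of the arms, fell (4.81 ± 1.18 CPM in Nvs and 7.91 ± 1.07 CPM in mod, -0.72 ± 0.20, adjusted p = 0.00884). Without mod replicate 2 its adjusted p was 0.0526.

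**Figure D5:**
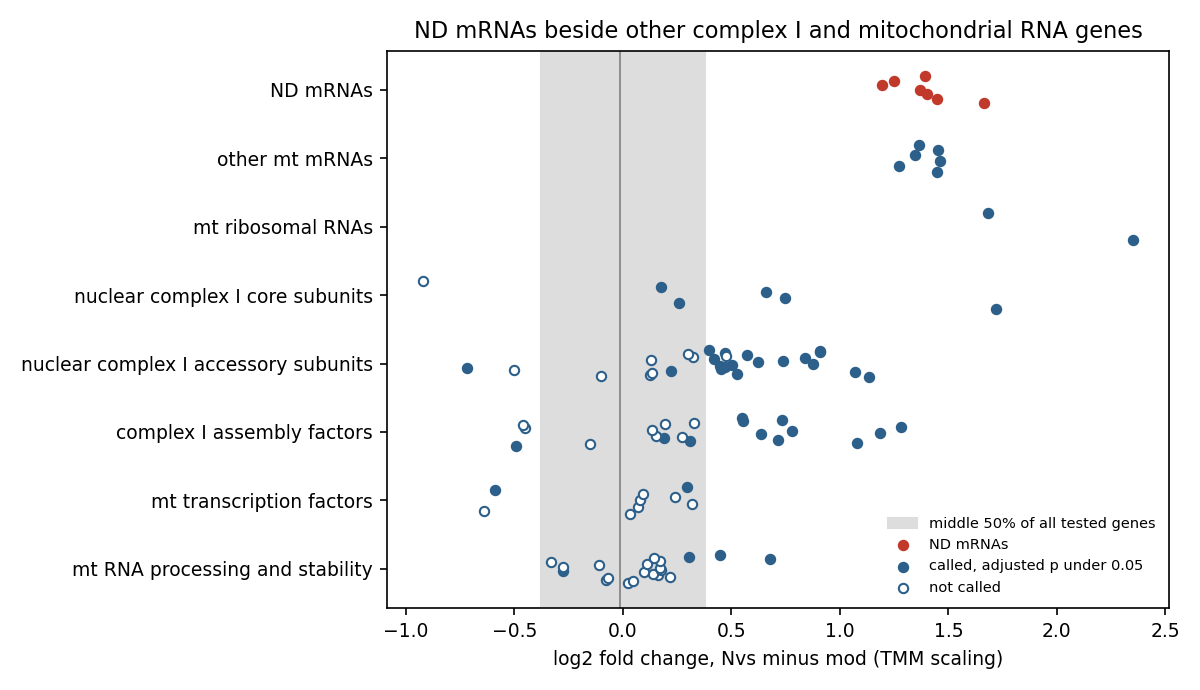
Log2 fold change (Nvs minus mod, TMM scaling) of each tested gene, by list. Red points are the ND mRNAs, filled blue points were called by edgeR at an adjusted p under 0.05, open points were not, and the grey band holds the middle 50% of all tested genes. The ND mRNAs lie between 1.19 and 1.66, and the nuclear complex I subunits lie around a median of 0.47, which was -0.29 by library total.

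Complex I assembly factors, which insert and join its modules, showed 11 rises and 1 fall among 20 tested genes, against 22.8% called higher and 20.5% called lower among all genes. Their median log2 fold change was 0.32. By library total it was -0.44, where the typical gene stood at -0.77. By that scaling 3 were called higher and 11 lower, beside 591 higher and 9937 lower among all 14617 tested genes. Here too the direction depends on the scaling. The largest rises were those of NDUFAF8 (24.3 ± 1.46 CPM in Nvs and 10.0 ± 0.397 CPM in mod, log2 fold change 1.28 ± 0.10 SE, adjusted p = 3.70e-07), NDUFAF4 (1.18 ± 0.17) and DMAC1 (1.08 ± 0.12). These stood at 0.52, 0.43 and 0.32 by library total. DMAC2 and FOXRED1 rose least (0.31 ± 0.10 and 0.19 ± 0.07) and were -0.45 and -0.57 by library total. DMAC2 lost its call without Nvs replicate 1 (adjusted p = 0.0581) or mod replicate 3 (0.104) and with upper quartile factors (0.0558), and FOXRED1 did so without Nvs replicate 1 or 3 or any mod replicate, with adjusted p up to 0.213. FOXRED1 was not called by DESeq2 either (0.0638), nor with a replicate block (0.0896), without a count filter (0.116), with upper quartile factors (0.2) or with scaling from genes outside the mitochondrial genome (0.0591). ACAD9, an acyl-CoA dehydrogenase family member needed early in assembly, fell (36.5 ± 3.86 CPM in Nvs and 51.3 ± 1.72 CPM in mod, -0.49 ± 0.08, adjusted p = 0.000223).

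Of 9 tested transcription factors of the organelle 1 rose and 1 fell, where 22.8% of all tested genes were called higher and 20.5% lower. Their median log2 fold change was 0.08, and -0.68 by library total, where the typical gene stood at -0.77. Taken with the 20 RNA processing and stability genes, 27 were called lower by library total and 0 higher. By that scaling 9937 of all 14617 tested genes were called lower and 591 higher. POLRMT, the mitochondrial RNA polymerase, had 103 ± 4.37 CPM in Nvs and 97.6 ± 3.94 CPM in mod (log2 fold change 0.08 ± 0.06 SE, adjusted p = 0.277). TFAM, which packs mitochondrial DNA and starts transcription, had 23.6 ± 0.677 CPM in Nvs and 22.1 ± 1.54 CPM in mod (0.10 ± 0.09, adjusted p = 0.434). TFB2M, the other initiation factor, rose by 0.30 ± 0.11 (adjusted p = 0.0466, -0.46 by library total). TFB1M, a methyltransferase of the small ribosomal RNA, fell by 0.59 ± 0.22 (adjusted p = 0.0419). TFB2M lost its call without Nvs replicate 1 or 3 or any mod replicate, with adjusted p up to 0.154, and TFB1M did so without Nvs replicate 1 or any mod replicate, with up to 0.141. TFB2M was not called by DESeq2 either (0.0554), nor with a replicate block (0.0742), without a count filter (0.0969), with upper quartile factors (0.119) or with scaling from genes outside the mitochondrial genome (0.0549).

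Of 20 tested genes for processing and stability of mitochondrial RNA, 3 rose, 1 fell and 16 were not called, against 22.8% called higher and 20.5% called lower among all genes. Their median log2 fold change was 0.13, and -0.63 by library total. LRPPRC and SLIRP form the complex that keeps the heavy-strand mRNAs stable and polyadenylated, and they differed in direction. SLIRP had 31.1 ± 1.51 CPM in Nvs and 19.5 ± 1.32 CPM in mod (log2 fold change 0.68 ± 0.09 SE, adjusted p = 4.14e-05, -0.08 by library total). LRPPRC had 71.9 ± 2.12 CPM in Nvs and 87.2 ± 4.55 CPM in mod (-0.28 ± 0.06, adjusted p = 0.00181, -1.04 by library total). TRMT10C, a subunit of the mitochondrial RNase P, and TBRG4, a FASTK family protein, rose by 0.45 ± 0.10 and 0.31 ± 0.06, which were -0.31 and -0.45 by library total. GRSF1, an RNA granule protein that binds MT-ND6 mRNA, had 45.0 ± 2.06 CPM in Nvs and 40.8 ± 1.53 CPM in mod (0.14 ± 0.07, adjusted p = 0.113). FASTK, whose mitochondrial form is needed for MT-ND6 mRNA, had 120 ± 9.59 CPM in Nvs and 116 ± 1.93 CPM in mod (0.05 ± 0.06, adjusted p = 0.576).

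Among 7 nuclear regulators of mitochondrial gene expression, 1 rose and 2 fell, a share of calls near the 43.3% of all tested genes. Their median log2 fold change was 0.02, and -0.73 by library total. ESRRA, an orphan nuclear receptor, rose by 0.58 ± 0.06 SE on the log2 scale (adjusted p = 4.28e-06, -0.18 by library total). PPARGC1A, the coactivator PGC-1alpha, was low and fell (1.71 ± 0.108 CPM in Nvs and 3.48 ± 0.449 CPM in mod, -1.03 ± 0.24, adjusted p = 0.00332). NRF1, nuclear respiratory factor 1, fell by 0.35 ± 0.12 (adjusted p = 0.0352) and lost its call without Nvs replicate 1 or 3 or mod replicate 1 or 2, with adjusted p up to 0.133.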

How the data were processed

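Gene counts per symbol and FPKM values for the same symbols were deposited by the authors, 1 column per library. Per the labels' protocols the libraries were poly(A)-selected and strand-specific. The sources used here do not name the aligner, counter, annotation, strand setting or multi-mapping rule. Count divided by FPKM gave each ND gene the same length in all libraries within 0.115%, so both deposited tables rest on the same counts. Counts were fitted in R 4.3.3 with edgeR 4.0.16 (filterByExpr with minimum count 10 and minimum total 15, TMM, quasi-likelihood F test, group as the sole term), with Benjamini-Hochberg adjustment over 14617 genes and calls at an adjusted p under 0.05. The SE is the size of the log2 fold change over the square root of F. The fit was tested on simulated data. Alternatives used DESeq2 1.42.0 and limma 3.58.1.

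The members and lists were chosen with earlier results of these data known. Named genes were the 7, the 3 called genes with the highest and the 3 with the lowest fold change of each nuclear list, 8 genes set by name, and the 5 nuclear-located genes nearest in profile. A gene that this rule names is not reported here.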

Additional observations from a re-analysis of the deposited data

How the results depend on the processing

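The direction of all 7 ND mRNAs was the same under every alternative run. Their median log2 fold change was 1.39, 0.63 by library total and 0.63 with limma on log2(FPKM + 0.1) or log2(FPKM + 1), and 1.36 to 1.40 with 1 library left out. The 6329 calls (3339 higher and 2990 lower) became 10528 (591 and 9937) by library total, 10717 (620 and 10097) with log2(FPKM + 0.1) and 10719 (619 and 10100) with log2(FPKM + 1), where the typical gene stood at -0.77, -0.67 and -0.40. With 1 library left out they were 5159 to 6392. Nuclear complex I subunits, 23 higher and 1 lower, became 2 and 15 by library total, and to 2 and 18 with either FPKM pseudocount. Assembly factors, 11 and 1, became 3 and 11 by library total, 3 and 13 with log2(FPKM + 0.1) and 3 and 12 with log2(FPKM + 1). Mitochondrial transcription and RNA factors, 4 and 2, became 0 and 27 under each of these. With upper quartile factors the lower calls were 2, 2 and 4 in these lists, and without a count filter they were 2 among assembly factors. With 1 library left out they were 0 to 2, 1 to 2 and 1 to 3. These scalings differ by construction in where they set the typical gene. The share of the 7 was 16.2% of summed FPKM in Nvs and 13.8% in mod, 33.0% of the 13 mRNAs in Nvs and 33.1% in mod, and 12.9% of counts outside mitochondrial ribosomal RNA in Nvs and 7.18% in mod. The share of MT-ND6 was 8.38% of the FPKM of the 7 in Nvs and 8.49% in mod, and 1.42% of the 13 mRNAs in Nvs and 1.45% in mod.

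Same-numbered libraries did not deviate together across all tested genes (r -0.023, -0.011 and -0.019). That check takes all genes at once, so it cannot exclude a weak pairing or a pairing limited to some genes. With the replicate number as a block the median of the 7 was 1.39, 5950 genes were called, 2 assembly factors were lower, and of the named genes NDUFV1, FOXRED1 and TFB2M lost their call, with the values given beside them. Counting error was small for the ND mRNAs, while NDUFS3 and NDUFA3 had too few counts to test, and why was not tested.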

Other observations

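Of 22 mitochondrial transfer RNAs, 4 were in the table. MT-TP, the proline transfer RNA and like MT-ND6 a light-strand gene, had 14453, 13259 and 14005 counts in the Nvs libraries, against 9863, 9066 and 8614 counts in the mod libraries. Its log2 fold change was 1.54 ± 0.05 SE, and 0.78 by library total. MT-ND6 over MT-TP, per length, was 1.73 ± 0.0546 in Nvs and 1.92 ± 0.0384 in mod (SD, n = 3 each), and the groups did not overlap. The MT-TP gene is shorter than a sequencing read, so its counts need not be those of the mature transfer RNA. With the strand setting not given, reads from MT-TP and from opposite-strand RNA across it cannot be told apart. Which RNAs gave the MT-TP counts, and so this ratio, was not tested. MT-TF, the phenylalanine transfer RNA, had 20, 22 and 12 counts in the Nvs libraries, against 2, 7 and 10 counts in the mod libraries, with a log2 fold change of 2.40 ± 0.79 SE (edgeR adjusted p = 0.0246). MT-TC and MT-TY had at most 10 counts in any library.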
